A study of Mus musculus with 12 samples.

Results

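Chemokines and interleukins are the secreted signals by which cells of a tissue call in and instruct leukocytes, and this is an account of their transcripts in mouse mammary epithelial cells grown as monolayers or as spheroids. The set was chosen by gene name: every row of the deposited annotation with a symbol of the form Ccl, Cxcl, Cx3cl or Il followed by a number and at most 1 letter, ligands without receptors. It holds 80 of the 28427 annotated rows, for 72 symbols. The cells, from mice of the C57BL/6 background, were plated on dishes coated with collagen (monolayers) or cast into growth factor-reduced Matrigel, a gel of basement membrane proteins (spheroids), and RNA was sequenced after 48 h and after 96 h. Each of the 4 groups holds 3 libraries, which the series calls biological replicates. All groups shared a medium with progesterone and prolactin, and the medium on the gels was renewed after 48 h. Growth on a flat coat of collagen and growth inside Matrigel differ in both shape and matrix, so the effects of these cannot be told apart, and "spheroid effect" stands for both. At 96 h it also includes any effect of the renewed medium, which is given above for the gels only. The change with time in spheroids includes this as well. The source animals of the replicates are not stated, so p-values measure the spread between these libraries, which may be partly technical.

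By way of background, chemokines are small proteins that bind receptors of the G protein-coupled class on leukocytes and set up gradients along which these cells move. They are grouped by the spacing of their first cysteines into CXC, CC and CX3C families; CXC members with a glutamate-leucine-arginine (ELR) motif attract neutrophils through Cxcr2, while most CC members attract monocytes, eosinophils or lymphocytes. Interleukins act on receptors of several classes: the Il1 family, to which Il1a and Il33 belong, signals through Myd88 to NF-kB, and Il6 and Il11 signal through the shared receptor subunit Il6st to Stat3. In the mammary gland, such signals are known for their part in macrophage recruitment during duct growth and in the inflammatory phase of involution after weaning.

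Of the 80 rows, 21 had a count of 0 in every library, among them Il2, Il4, Il10, Il13, Il17a and Il22, cytokines made mainly by lymphocytes, and Ccl4. A further group had too few counts to test, of which Ccl5 (52 counts over the 12 libraries), Cxcl9 (48), Il36a (41), Cxcl13 (40) and Cxcl11 (24) had the most. The filter on low counts passed 34 rows, 21 of chemokines and 13 of interleukins, and 22 of these reached a group mean of 5 CPM (counts scaled to library size) in at least 1 group and are called well measured below. A row that passed only through the group in which it was high had to differ, so counts over the 34 rows describe these rows and do not stand for the whole family. Libraries held 7674105 to 13554497 counts, at which 3 counts correspond to 0.223 to 0.376 CPM. Tests were made with edgeR over the 13951 genes that passed the filter, ± after a log2 change is its standard error, ± after a level is the SD over 3 libraries, and rose, fell, higher or lower "called" means an adjusted p under 0.05.

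The labelled cell type was checked on marker lists. The summed level of 10 epithelial markers was 14056 to 16219 CPM over the 48 h monolayers, 8847 to 9535 CPM over the 48 h spheroids, 5609 to 6064 CPM over the 96 h monolayers and 8098 to 8528 CPM over the 96 h spheroids, and none of the 10 was at 0 in any group. Leukocyte markers were low: the 15 summed to 26.2 to 39.1, 31.8 to 38.5, 46.0 to 51.8 and 32.4 to 36.4 CPM in the same order of groups, Cd3g of T cells was at 0 in all groups, and Ptprc, the gene of the pan-leukocyte antigen CD45, had 3, 8, 1 and 3 counts per group of 3 libraries. Fibroblast markers were not low: 10 of them summed to 10433 to 11262 CPM in the 48 h monolayers, and the other groups are given below. The check thus does not show cultures free of other cell types. In bulk RNA, fewer cells of a type and less RNA per cell cannot be told apart.

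The ELR chemokine genes carry much of what follows, and 5 of them, Cxcl1, Cxcl2, Cxcl3, Cxcl5 and Cxcl15, were well measured. In the RefSeq annotation they neighbour each other in the order Cxcl5, Ppbp, Pf4, Cxcl3, Cxcl15, Cxcl1, Cxcl2. The stretch upstream of the start is shown for the 4 of them with an entry in the RefSeq promoter table (build GRCm38.p6, plus strand; Cxcl5 has none), and for Il6, which moved the other way. Each run is 120 bases, 5′ to 3′, and ends 0 to 28 bases before the RefSeq start, ahead of the earliest annotated transcript: Cxcl1 at chr5:90891121-90891240, Cxcl2 at chr5:90903751-90903870, Cxcl3 at chr5:90785981-90786100, Cxcl15 at chr5:90794414-90794533 and Il6 at chr5:30012994-30013113. Capitals mark matches to GGGANNTTC, letters from the site that NF-kB binds (matches on both strands overlap in Cxcl1, Cxcl2 and Cxcl3 and are capitalised as 1 run), and to TATAAA, the TATA box.
Cxcl1: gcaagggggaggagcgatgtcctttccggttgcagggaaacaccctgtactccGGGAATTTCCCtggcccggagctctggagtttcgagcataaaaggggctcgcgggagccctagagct
Cxcl2: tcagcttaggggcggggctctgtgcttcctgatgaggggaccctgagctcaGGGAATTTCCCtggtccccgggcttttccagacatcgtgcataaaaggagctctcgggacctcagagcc
Cxcl3: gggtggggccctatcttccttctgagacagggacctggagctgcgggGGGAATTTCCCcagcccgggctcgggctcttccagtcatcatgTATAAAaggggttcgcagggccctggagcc
Cxcl15: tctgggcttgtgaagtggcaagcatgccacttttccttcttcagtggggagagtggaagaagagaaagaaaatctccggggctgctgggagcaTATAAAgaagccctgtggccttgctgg
Il6: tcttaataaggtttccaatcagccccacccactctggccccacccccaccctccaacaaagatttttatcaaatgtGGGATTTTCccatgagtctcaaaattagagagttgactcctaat

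The run GGGAATTTCCC stood in the promoters of Cxcl1, Cxcl2 and Cxcl3, and GGGATTTTC in that of Il6, while the Cxcl15 promoter held TATAAA and no match to GGGANNTTC. Searched on both strands, GGGANNTTC was found in 3.94% of the 32851 promoters in the table, each of the same length, and in 6 of the 21 tested members that have an entry (Cxcl1, Cxcl2, Cxcl3, Cxcl10, Il6 and Il16). TATAAA was found in 13.6% of all promoters and 9 of the 21 members, and the AP-1 type letters TGANTCA in 7.81% and 7 of the 21. The first motif is thus found upstream of genes that were higher in spheroids (Cxcl1, Cxcl2 and Cxcl3, and Il16 at 48 h). It is also found upstream of genes that were lower in them (Il6, and Cxcl10 at 48 h). A match describes letters in this window and says nothing of binding.

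All 5 well measured ELR genes were higher in spheroids than in monolayers at both times. Ppbp, an ELR gene of the same cluster outside the name rule, was low and went the other way at 48 h, with 1.17 CPM in monolayers and 0.216 CPM in spheroids (39 and 6 counts; log2 change -2.39 ± 0.553, adjusted p = 0.00113), and it had 2 counts in each format at 96 h. Cxcl1, whose product attracts neutrophils, stood at 83.1, 87.7 and 87.9 CPM in the 48 h monolayers and 122, 103 and 106 CPM in the 48 h spheroids. At 96 h, the monolayers had 54.2, 51.7 and 38.1 CPM and the spheroids 77.2, 96.0 and 82.6 CPM. The groups did not overlap at either time. The spheroid effect on Cxcl1 was 1.28-fold at 48 h (log2 change 0.36 ± 0.104, adjusted p = 0.00659) and 1.78-fold at 96 h (log2 change 0.83 ± 0.109, adjusted p = 1.74e-06). Per transcript length, Cxcl1 was the most abundant member in 3 of the 4 groups, with mean FPKM (fragments scaled to gene length and library size) of 121 in 48 h spheroids, 55.0 in 96 h monolayers and 92.2 in 96 h spheroids. In 48 h monolayers its FPKM of 87.6 stood below those of Cxcl16 (109) and Ccl2 (103).

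Cxcl2, the next gene along the chromosome and a neutrophil attractant too, had 52.0, 49.3 and 51.2 CPM in the 48 h monolayers and 74.9, 79.3 and 75.7 CPM in the 48 h spheroids. Its levels at 96 h were 14.1, 14.2 and 11.0 CPM in monolayers and 25.9, 27.1 and 24.4 CPM in spheroids. Every spheroid library thus stood above the monolayers of its time, and every 96 h library below every 48 h library. The effect of spheroids was 1.51-fold at 48 h (log2 change 0.59 ± 0.0740, adjusted p = 1.56e-06) and 1.98-fold at 96 h (log2 change 0.98 ± 0.0934, adjusted p = 2.33e-08). Cxcl3, a less abundant relative, stood at 2.94, 2.82 and 2.95 CPM in 48 h monolayers and 6.53, 9.15 and 8.13 CPM in 48 h spheroids. In the later samples it had 0.960, 0.626 and 0.353 CPM in monolayers and 4.74, 5.10 and 4.01 CPM in spheroids. The spheroids stood above the monolayers of their time without overlap, and the 96 h spheroids also stood above the 48 h monolayers. The effect was 2.71-fold at 48 h (log2 change 1.44 ± 0.206, adjusted p = 8.45e-06) and 6.90-fold at 96 h (log2 change 2.79 ± 0.283, adjusted p = 5.84e-08).

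Cxcl5, which attracts neutrophils and is known as an epithelial product, had the largest spheroid effect at 96 h among the tested members. Its levels were 5.10, 7.13 and 7.07 CPM in the 48 h monolayers, against 50.0, 51.8 and 44.2 CPM in the 48 h spheroids. By 96 h they were 1.04, 1.00 and 1.499 CPM in monolayers and 140.3, 151 and 148 CPM in spheroids. The lowest spheroid library was far above the highest monolayer library at both times. The effect was 7.50-fold at 48 h (log2 change 2.91 ± 0.110, adjusted p = 8.75e-14) and 122-fold at 96 h (log2 change 6.93 ± 0.136, adjusted p = 2.04e-17). On the per-length scale Cxcl5 reached a mean of 88.8 FPKM in 96 h spheroids, next to Cxcl1 with 92.2 FPKM, from 0.737 FPKM in 96 h monolayers.

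Cxcl15, also called lungkine, was close to absent from monolayers. The 48 h monolayers held 1 count in all (0, 0.0829 and 0 CPM), and the 48 h spheroids had 12.8, 8.92 and 9.57 CPM. At 96 h the levels were 0.320, 0.376 and 0.882 CPM in monolayers and 7.87, 10.4 and 10.7 CPM in spheroids. The groups were apart at both times. Because of the single count, the effect at 48 h is given as a ratio of pooled counts, 298 against 1 scaled to library size, which was 353 (95% counting interval 63.0 to 14008). At 96 h the effect was 17.7-fold (log2 change 4.15 ± 0.302, adjusted p = 5.76e-10). Reads carried no molecular identifiers, so counting intervals cover counting error only.

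**Figure D1:**
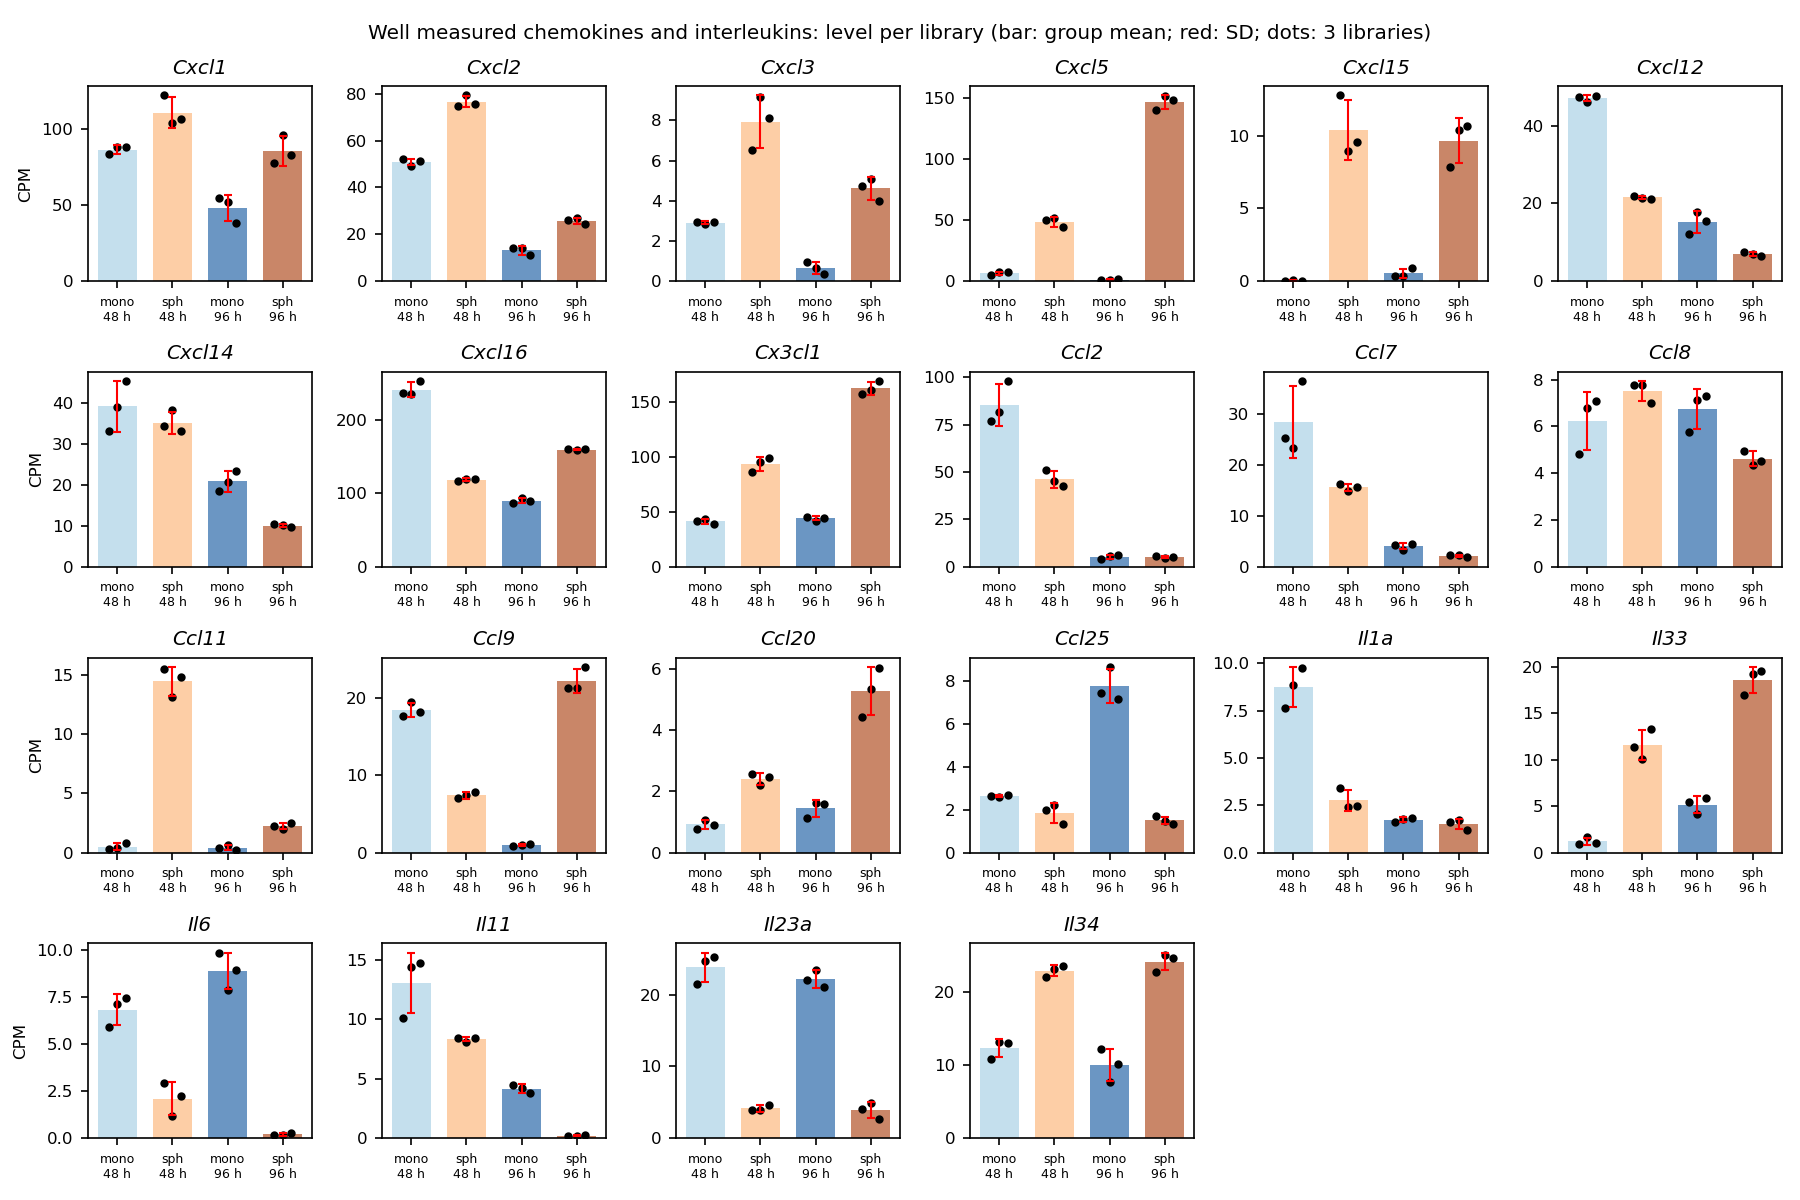
Level of each of the 22 well measured chemokine and interleukin genes, in CPM on a linear axis that starts at 0 in each panel, in monolayers (mono, blue) and spheroids (sph, orange) after 48 h and 96 h. Bars are means over 3 libraries, dots are the libraries and red bars are SD; Cxcl5 and Cxcl15 are far higher in spheroids than in monolayers, and Il6 and Il11 are near 0 in the 96 h spheroids (0.205 and 0.230 CPM).

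The CXC genes without an ELR motif did not move as a group. Cxcl12, the ligand of Cxcr4 and a product typical of stromal cells, stood at 47.5, 46.3 and 47.7 CPM in 48 h monolayers and 22.0, 21.5 and 21.1 CPM in 48 h spheroids. In the 96 h libraries it had 12.2, 17.8 and 15.6 CPM in monolayers and 7.57, 6.99 and 6.46 CPM in spheroids. It was lower in every spheroid library than in any monolayer library of the same time. The spheroid effect was 2.18-fold downward at 48 h (log2 change -1.13 ± 0.100, adjusted p = 1.67e-08) and 2.14-fold downward at 96 h (log2 change -1.09 ± 0.126, adjusted p = 3.23e-07), and the difference between these was 0.03 ± 0.167 (adjusted p = 0.888).

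Cxcl14, a chemokine made by many epithelia, had 33.1, 39.1 and 45.5 CPM in the 48 h monolayers and 34.4, 38.3 and 33.2 CPM in the 48 h spheroids, which overlapped. At 96 h it had 18.6, 20.7 and 23.5 CPM in monolayers and 10.4, 10.1 and 9.65 CPM in spheroids, which did not. It was 2.08-fold lower in spheroids at 96 h (log2 change -1.06 ± 0.128, adjusted p = 6.16e-07), while the value at 48 h was -0.16 ± 0.107 (adjusted p = 0.219). Without replicate 1 of the 48 h monolayers, the 48 h value was -0.26 and passed the threshold (adjusted p = 0.0343; range over the alternatives 0.0343 to 0.786).

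Cxcl16 changed sides between the times. This chemokine is made with a membrane anchor and binds Cxcr6 on T cells and related cells. Its levels were 236, 235 and 253 CPM in 48 h monolayers and 117, 119.99 and 119.7 CPM in 48 h spheroids, and at 96 h 86.3, 93.9 and 90.1 CPM in monolayers and 160.5, 159 and 159.9 CPM in spheroids. Libraries within a group lay close together, and no groups overlapped. Spheroids were 2.03-fold lower at 48 h (log2 change -1.02 ± 0.0590, adjusted p = 3.31e-11) and 1.77-fold higher at 96 h (log2 change 0.83 ± 0.0597, adjusted p = 5e-10). The difference between these effects was 1.85 ± 0.0839 on the log2 scale (adjusted p = 3.54e-12).

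Cx3cl1, or fractalkine, is the other chemokine anchored in the membrane and the only CX3C gene, and it was higher in spheroids at both times. It stood at 41.6, 43.8 and 39.1 CPM in 48 h monolayers and 86.0, 95.2 and 99.0 CPM in 48 h spheroids. At 96 h the monolayers, with 45.5, 42.0 and 44.4 CPM, overlapped those of 48 h, whereas the spheroids reached 157, 161 and 169 CPM, above all other libraries. The effect was 2.25-fold at 48 h (log2 change 1.17 ± 0.0716, adjusted p = 8.48e-11) and 3.68-fold at 96 h (log2 change 1.88 ± 0.0699, adjusted p = 3.52e-14).

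A pair of low CXC genes also moved in opposite directions. Cxcl10, a chemokine induced by interferon, had group means of 4.31 CPM in 48 h monolayers and 0.733 CPM in 48 h spheroids and was lower in spheroids at that time (log2 change -2.58 ± 0.357). At 96 h its means were 2.05 and 1.45 CPM, with a difference of -0.49 ± 0.327 that was not called (adjusted p = 0.18). Cxcl17, known from mucosal epithelia, was higher in spheroids, with 1.01 against 0.118 CPM at 48 h (2.94 ± 0.586) and 1.82 against 0.139 CPM at 96 h (3.46 ± 0.484), on 4 and 5 counts in the monolayer groups.

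Among the CC genes, the monocyte attractants Ccl2 and Ccl7 were highest in the 48 h monolayers. Ccl2, the main ligand of Ccr2, stood at 76.9, 81.5 and 98.1 CPM in 48 h monolayers and 51.2, 45.3 and 42.4 CPM in 48 h spheroids, and fell to 4.08, 5.64 and 6.00 CPM in 96 h monolayers and 5.89, 4.69 and 5.42 CPM in 96 h spheroids. The formats were apart at 48 h and overlapped at 96 h. The spheroid effect was 1.84-fold downward at 48 h (log2 change -0.88 ± 0.101, adjusted p = 5.02e-07) and 0.05 ± 0.187 at 96 h (adjusted p = 0.824). Ccl7, which binds Ccr2 and other CC receptors, had 25.3, 23.3 and 36.4 CPM in 48 h monolayers and 16.2, 14.8 and 15.7 CPM in 48 h spheroids. Its 96 h levels were 4.32, 3.38 and 4.50 CPM in monolayers and 2.29, 2.30 and 1.93 CPM in spheroids. It was lower in spheroids without overlap at both times, 1.82-fold at 48 h (log2 change -0.86 ± 0.141, adjusted p = 4.07e-05) and 1.90-fold at 96 h (log2 change -0.92 ± 0.242, adjusted p = 0.0022).

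Ccl11, or eotaxin, is related to Ccl2 and Ccl7 and attracts eosinophils through Ccr3, and it went the other way. It was at 0.294, 0.415 and 0.805 CPM in 48 h monolayers against 15.4, 13.1 and 14.8 CPM in 48 h spheroids. In the 96 h cultures it stood at 0.400, 0.626 and 0.176 CPM in monolayers and 2.22, 1.97 and 2.45 CPM in spheroids. Spheroids were above monolayers in every library of both times, with the 48 h spheroids highest. The effect was 27.9-fold at 48 h (log2 change 4.80 ± 0.263, adjusted p = 1.63e-11), on 17 counts in the monolayers, and 5.72-fold at 96 h (log2 change 2.52 ± 0.360, adjusted p = 4.93e-06). Ccl8, a further relative, ranged from 4.36 to 7.76 CPM over all libraries. It had 4.80, 6.80 and 7.07 CPM in 48 h monolayers, 7.76, 7.76 and 7.01 CPM in 48 h spheroids, 5.76, 7.14 and 7.32 CPM in 96 h monolayers and 4.97, 4.36 and 4.53 CPM in 96 h spheroids. The formats overlapped at 48 h, whereas the 96 h spheroids lay below the 96 h monolayers and the 48 h spheroids. At 96 h Ccl8 was 1.45-fold lower in spheroids (log2 change -0.53 ± 0.168, adjusted p = 0.00814), whereas at 48 h the value was 0.26 ± 0.164 (adjusted p = 0.179), which passed the threshold only with limma on log2 FPKM (0.37, adjusted p = 0.0148; range over the alternatives 0.0148 to 0.561).

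Fibroblast markers moved with several of these genes. The list of 10 had all members tested and none at 0. Its sum was 10433 to 11262 CPM in 48 h monolayers and 2327 to 2537 CPM in 48 h spheroids. At 96 h it was 2379 to 3479 CPM in monolayers and 836 to 885 CPM in spheroids. By group mean, Cxcl12, Cxcl14, Ccl7, Il1a, Il11 and Il23a were highest and lowest in the same groups as this sum. The epithelial sum was also highest in the 48 h monolayers but lowest in the 96 h monolayers, as were the means of Cxcl16 and Ccl2. Of the 10 fibroblast markers, 7 were lower in spheroids at 48 h (70%, beside 26.4% of all genes) and 8 at 96 h (80%, beside 36.5% of all genes). In the other direction, 2 were higher at 48 h (20%, beside 31.6%) and 1 at 96 h (10%, beside 37.3%). The adipocyte list of 6, of which 2 were tested, summed to 30.8 to 36.2, 273 to 305, 52.7 to 78.4 and 46.6 to 50.4 CPM in the same order. Cfd and Lep were at 0 in the 48 h spheroids and in both monolayer groups. This sum was highest in the 48 h spheroids, as were the group means of Cxcl1, Cxcl2, Cxcl3, Cxcl15, Ccl8 and Ccl11. The endothelial list of 10 summed to 85.6 to 104, 79.0 to 88.5, 95.4 to 104 and 33.9 to 41.1 CPM, with no member at 0. It was lowest in the 96 h spheroids, as were the group means of Cxcl12, Cxcl14, Ccl7, Ccl8, Ccl25, Il1a, Il6, Il11 and Il23a. The part of these cell types in the changes of chemokines and interleukins was not tested.

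Ccl9 changed sides too. It codes for a ligand of Ccr1 that attracts myeloid cells. The 48 h monolayers had 17.7, 19.5 and 18.2 CPM and the 48 h spheroids 7.00, 7.41 and 7.90 CPM. At 96 h the order was turned, with 0.800, 1.00 and 1.06 CPM in monolayers and 21.3, 21.3 and 24.1 CPM in spheroids. No groups overlapped in either comparison. Spheroids were 2.49-fold lower at 48 h (log2 change -1.31 ± 0.111, adjusted p = 8.45e-09) and 23.3-fold higher at 96 h (log2 change 4.54 ± 0.155, adjusted p = 1.06e-14). The difference of 5.86 ± 0.195 on the log2 scale (adjusted p = 7.9e-14) was the largest interaction among the tested members. Ccl6, its close relative, was low: its means of 4.77 and 0.528 CPM at 48 h gave a called decrease in spheroids (-3.23 ± 0.448), and those of 1.49 and 0.723 CPM at 96 h gave -1.02 ± 0.464 (adjusted p = 0.0545), opposite in sign to Ccl9 at that time.

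Ccl20, which attracts Ccr6-bearing lymphocytes and dendritic cells to epithelia, was higher in spheroids. Its levels were 0.784, 1.08 and 0.895 CPM in 48 h monolayers, 2.56, 2.20 and 2.45 CPM in 48 h spheroids, 1.12, 1.63 and 1.59 CPM in 96 h monolayers and 4.43, 5.35 and 6.01 CPM in 96 h spheroids. Spheroids were apart from monolayers at each time, by 2.58-fold at 48 h (log2 change 1.37 ± 0.281, adjusted p = 0.000392) and 3.68-fold at 96 h (log2 change 1.88 ± 0.229, adjusted p = 6.67e-07). Ccl25, a ligand of Ccr9 known from thymus and gut epithelium, was highest in the 96 h monolayers. It stood at 2.65, 2.57 and 2.68 CPM in 48 h monolayers and 1.99, 2.20 and 1.34 CPM in 48 h spheroids. The 96 h monolayers had 7.44, 8.64 and 7.14 CPM, well above every other library, and the 96 h spheroids 1.68, 1.48 and 1.34 CPM. At 96 h it was 5.10-fold lower in spheroids (log2 change -2.35 ± 0.202, adjusted p = 5.9e-09). The value at 48 h was -0.51 ± 0.236 (adjusted p = 0.0721); it became -0.64 and passed the threshold once replicate 2 of the 48 h spheroids was left out (adjusted p = 0.0489; range over the alternatives 0.04 to 0.295). A lower row of Ccl25 was called lower in spheroids at 96 h too (-1.55 ± 0.468), which without replicate 1 of the 96 h monolayers was -1.11 and not called; RSEM may have divided reads between both rows. Ccl27a, whose row is shared with Gm2506, stayed between 2.16 and 2.63 CPM in the group means and was called in no comparison.

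Of the interleukins, the Il1 family genes Il1a and Il33 moved in opposite directions. Both proteins act as alarmins, held in cells and released on damage. Il1a stood at 7.65, 8.87 and 9.75 CPM in 48 h monolayers, 3.41, 2.43 and 2.45 CPM in 48 h spheroids, 1.60, 1.75 and 1.85 CPM in 96 h monolayers and 1.61, 1.73 and 1.19 CPM in 96 h spheroids. The formats were apart at 48 h and overlapped at 96 h. It was 3.14-fold lower in spheroids at 48 h (log2 change -1.65 ± 0.194, adjusted p = 7.39e-07), and the value at 96 h was -0.20 ± 0.258 (adjusted p = 0.493). Il33, the ligand of Il1rl1, had 0.882, 1.66 and 1.07 CPM in 48 h monolayers and 11.4, 10.1 and 13.4 CPM in 48 h spheroids. Its 96 h levels were 5.44, 4.13 and 5.91 CPM in monolayers and 17.0, 19.3 and 19.6 CPM in spheroids. All 4 groups were apart, in the order 48 h monolayers, 96 h monolayers, 48 h spheroids, 96 h spheroids. The spheroid effect was 9.40-fold at 48 h (log2 change 3.23 ± 0.211, adjusted p = 2.13e-10) and 3.54-fold at 96 h (log2 change 1.82 ± 0.151, adjusted p = 3.6e-09).

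Il6 and Il11, which share the receptor subunit Il6st, were both lower in spheroids, and at 96 h they were near the limit of detection there. Il6 stood at 5.88, 7.13 and 7.43 CPM in 48 h monolayers and 2.93, 1.16 and 2.23 CPM in 48 h spheroids. In the 96 h cultures it had 9.84, 7.89 and 8.91 CPM in monolayers and 0.153, 0.165 and 0.297 CPM in spheroids, where the 3 libraries held 8 counts in all. The formats did not overlap at either time. Spheroids were 3.17-fold lower at 48 h (log2 change -1.66 ± 0.237, adjusted p = 8.02e-06) and 41.1-fold lower at 96 h (log2 change -5.36 ± 0.330, adjusted p = 5.22e-11); the pooled counts at 96 h gave a ratio of 43.6 (95% counting interval 21.8 to 102). Il11 had 10.1, 14.3 and 14.7 CPM in 48 h monolayers and 8.42, 8.11 and 8.46 CPM in 48 h spheroids. At 96 h it had 4.48, 4.26 and 3.79 CPM in monolayers and 0.229, 0.165 and 0.297 CPM in spheroids, on 9 counts in the latter. It was 1.57-fold lower in spheroids at 48 h (log2 change -0.65 ± 0.150, adjusted p = 0.00115) and 17.2-fold lower at 96 h (log2 change -4.10 ± 0.317, adjusted p = 1.33e-09), without overlap, and the pooled counts at 96 h gave a ratio of 18.0 (95% counting interval 9.19 to 40.2).

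Il23a, the subunit that pairs with the Il12b product to form interleukin 23, kept nearly the same levels at both times. It stood at 21.5, 24.7 and 25.2 CPM in 48 h monolayers and 3.88, 3.94 and 4.68 CPM in 48 h spheroids. The 96 h libraries had 22.1, 23.4 and 21.0 CPM in monolayers and 4.13, 4.94 and 2.75 CPM in spheroids. Monolayers of both times overlapped each other, spheroids of both times did too, and the formats were far apart. The effect was 5.73-fold downward at 48 h (log2 change -2.52 ± 0.154, adjusted p = 8.39e-11) and 5.64-fold downward at 96 h (log2 change -2.50 ± 0.148, adjusted p = 2.97e-11), and their difference was 0.02 ± 0.231 (adjusted p = 0.946). Its partner Il12b had 3 counts over all 12 libraries. Il34, a ligand of Csf1r and so a growth signal of macrophages, showed the opposite order, with 10.9, 13.1 and 13.1 CPM in 48 h monolayers, 22.0, 23.2 and 23.6 CPM in 48 h spheroids, 12.2, 7.77 and 10.2 CPM in 96 h monolayers and 22.8, 25.1 and 24.7 CPM in 96 h spheroids. It was higher in every spheroid library than in any monolayer library, by 1.85-fold at 48 h (log2 change 0.89 ± 0.122, adjusted p = 5.1e-06) and 2.36-fold at 96 h (log2 change 1.24 ± 0.122, adjusted p = 3.88e-08).

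The interleukins below the level of well measured genes gave fewer calls. Il17b had means of 0.278 and 0.924 CPM at 48 h, a called increase in spheroids (1.73 ± 0.475). In the 96 h cultures its 51 spheroid counts and 3 monolayer counts stood in a ratio of 14.0 (95% counting interval 4.52 to 70.0). Il16, a T cell attractant, was higher in spheroids at 48 h (2.04 against 0.300 CPM, 2.73 ± 0.478), with -0.83 ± 0.480 at 96 h (adjusted p = 0.125). Il18, a further member of the Il1 family, was lower in spheroids at 96 h (0.206 against 1.30 CPM, -2.63 ± 0.574) and was not called at 48 h (-0.27 ± 0.567). Il7, a lymphocyte survival factor, was lower in spheroids, with log2 changes of -0.60 at 48 h and -0.66 at 96 h, but its call at 48 h ended without replicate 3 of the 48 h monolayers (-0.48) or replicate 2 of the 48 h spheroids (-0.53), and also with total-count scaling (adjusted p = 0.0558), with DESeq2 (0.0541) and with no filter on low counts (0.051). Il15, Il17d and Il24 were called in neither comparison of formats, with means from 0.193 to 1.86 CPM.

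Set against the background of all genes, the tested members were called more often in both directions at 48 h. At 96 h their shares were closer to those of all genes. The difference between these shares was not tested. At 48 h, 13 of the 34 were higher in spheroids (38.2%, beside 31.6% of the 13951 genes) and 12 were lower (35.3%, beside 26.4%). Their median log2 change was -0.17, and that of all genes was 0.05. At 96 h, 14 were higher (41.2%, beside 37.3%) and 11 lower (32.4%, beside 36.5%), with a median of 0.10 against -0.00147 for all genes. Of the 21 chemokine rows, 9 were higher and 7 lower at 48 h, and 11 higher and 6 lower at 96 h, while of the 13 interleukin rows 4 and 3 were higher and 5 and 5 lower. The median log2 change of the chemokine rows was 0.25 at 48 h and 0.83 at 96 h. That of the interleukin rows was -0.29 and -0.20. The tested rows of both families thus held changes in both directions, and the difference between the families was not tested.

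Over the 22 well measured genes, 4 patterns of format can be set apart. Spheroids were called higher at both times for 10 of them: the ELR genes Cxcl1, Cxcl2, Cxcl3, Cxcl5 and Cxcl15, with Cx3cl1, Ccl11, Ccl20, Il33 and Il34. They were called lower at both times for 5: Cxcl12, Ccl7, Il6, Il11 and Il23a. Ccl2 and Il1a were called lower at 48 h and not at 96 h, and Cxcl14, Ccl8 and Ccl25 lower at 96 h and not at 48 h. Cxcl16 and Ccl9 were the 2 genes called in opposite directions. Every well measured member was called at 1 time or both. The 22 were chosen by their level in the group where they were highest, and the share of all genes in each pattern was not computed. These counts thus describe the 22 genes only.

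**Figure D2:**
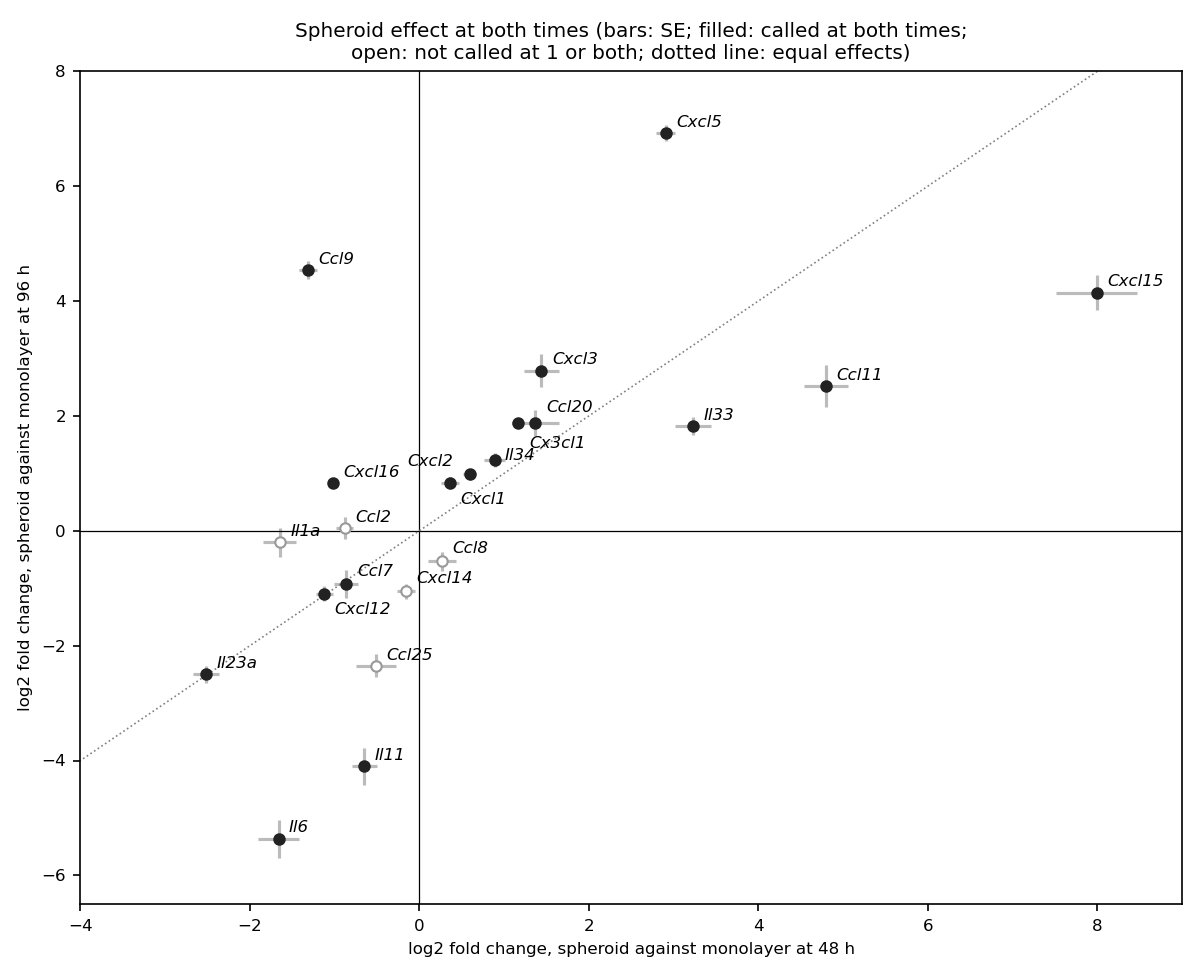
Spheroid effect on the 22 well measured genes, as log2 fold change of spheroids against monolayers at 48 h (horizontal axis) and at 96 h (vertical axis), with SE as bars; filled points were called at both times, open points at 1 of them, and the dotted line marks equal effects. Cxcl16 and Ccl9 lie at the upper left (-1.31 and 4.54 for Ccl9), Cxcl5 and Cxcl15 far to the upper right, and Il6 and Il11 lowest.

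From 48 h to 96 h more members fell than rose, in both formats. In monolayers, 15 of the 34 fell from 48 h to 96 h (44.1%, beside 31.3% of all genes) and 7 rose (20.6%, beside 30.1%), with a median log2 change of -0.36 against 0.01 for all genes. In spheroids, 14 fell (41.2%, beside 20.5%) and 8 rose (23.5%, beside 19.3%), with medians of -0.18 and 0.01. The count of 7 rises in monolayers was 11 when libraries were scaled by total count alone and 4 with a minimum count of 30.

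The share of all genes that fell in both formats was not computed. Among well measured genes, 9 fell in both formats. Ccl2 fell most in monolayers among them (log2 change -4.05 ± 0.135, adjusted p = 7.89e-14), with -3.11 ± 0.135 in spheroids, and Ccl7 fell by similar amounts in both (-2.77 ± 0.170 and -2.84 ± 0.197). Il11 fell too, with log2 changes of -1.64 in monolayers and -5.10 in spheroids (adjusted p of at most 1.06e-07). Cxcl12 (-1.65 ± 0.104 in monolayers, -1.62 ± 0.122 in spheroids) and Cxcl14 (-0.91 ± 0.112 and -1.81 ± 0.122) also fell. So did the ELR genes Cxcl1 (-0.85 ± 0.110 and -0.38 ± 0.104), Cxcl2 (-1.96 ± 0.0890 and -1.57 ± 0.0779) and Cxcl3 (-2.12 ± 0.308 and -0.78 ± 0.190). The spheroid effect on these ELR genes was larger at 96 h, with interactions called in the main analysis. With limma on log2 FPKM these interactions were not called, nor were those of Cxcl1 and Cxcl2 with total-count scaling. Il1a fell in both as well (-2.33 ± 0.206 in monolayers and -0.89 ± 0.242 in spheroids). Without replicate 1 of the 48 h spheroids, the falls in spheroids of Cxcl1 (-0.30) and Il1a (-0.70) were not called.

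Cxcl5, Cxcl16 and Ccl9 fell in monolayers and rose in spheroids. The log2 change of Cxcl5 was -2.43 ± 0.212 in monolayers and 1.59 ± 0.0797 in spheroids. That of Ccl9 was -4.28 ± 0.160 in monolayers, the largest fall of a tested member there, and 1.58 ± 0.108 in spheroids. For Cxcl16 the values were -1.42 ± 0.0598 and 0.43 ± 0.0590. The adjusted p of these 6 changes was at most 1.2e-05, and the libraries of both times were apart in each. Low Il16 did the opposite, with 1.52 ± 0.548 in monolayers and -2.04 ± 0.420 in spheroids, though its rise was not called without replicate 2 of the 48 h monolayers (1.40), replicate 1 of the 96 h monolayers (1.27) or replicate 2 of these (1.38), nor with limma on log2 FPKM.

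Other genes were called in 1 format, or rose or fell in both. Cx3cl1 rose in spheroids (0.80 ± 0.0661), with 0.09 ± 0.0747 in monolayers (adjusted p = 0.324), and Ccl20 rose in spheroids (1.13 ± 0.214), with 0.61 ± 0.302 in monolayers (adjusted p = 0.1). Both genes were called higher at 96 h in monolayers too with total-count scaling (0.26 for Cx3cl1 and 0.78 for Ccl20, adjusted p = 0.00727 and 0.0311) and with limma on log2 FPKM (0.00849 and 0.00355; ranges over the alternatives 0.00727 to 0.613 and 0.00355 to 0.246). Il6 fell in spheroids (-3.31 ± 0.432) and had 0.39 ± 0.189 in monolayers, where the libraries of both times were apart but the adjusted p was 0.0843; it passed without replicate 2 of the 48 h spheroids (0.0439), with total-count scaling, with limma and with only the groups compared (range over the alternatives 0.0159 to 0.258). Ccl11 (-2.70 ± 0.199) and Ccl8 (-0.70 ± 0.168) fell in spheroids. Ccl25 rose in monolayers (1.54 ± 0.190). Cxcl15 was called higher at 96 h in monolayers on 17 counts against 1 at a ratio of 17.9 (95% counting interval 2.80 to 746), and in spheroids the value was -0.12 ± 0.187 (adjusted p = 0.642). Il33 rose in both formats (2.09 ± 0.237 in monolayers and 0.68 ± 0.137 in spheroids). Of the low members, Il24 fell in both formats (-3.24 ± 0.455 in monolayers and -1.64 ± 0.404 in spheroids), and Cxcl10 (-1.05 ± 0.288) and Ccl6 (-1.68 ± 0.357) fell in monolayers. Il7 and Il15 were called higher at 96 h in both formats, with values of 0.62 and 0.90 in monolayers and 0.57 and 1.34 in spheroids; the call of Il15 in monolayers ended without any of 4 libraries (replicates 2 and 3 of either monolayer group; 0.73 to 1.07 over all libraries left out) and that of Il7 in spheroids without any of 6 (all 3 of the 48 h spheroids, replicates 2 and 3 of the 96 h spheroids and replicate 1 of the 96 h monolayers; 0.49 to 0.63). DESeq2 and the fit with no filter on low counts also ended both of these calls, and upper-quartile scaling and the fit of only the groups compared that of Il7. Il23a and Il34 were called in neither format, but Il34 passed in monolayers without replicate 1 of the 48 h monolayers (-0.35) or of the 96 h monolayers (-0.44).

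**Figure D3:**
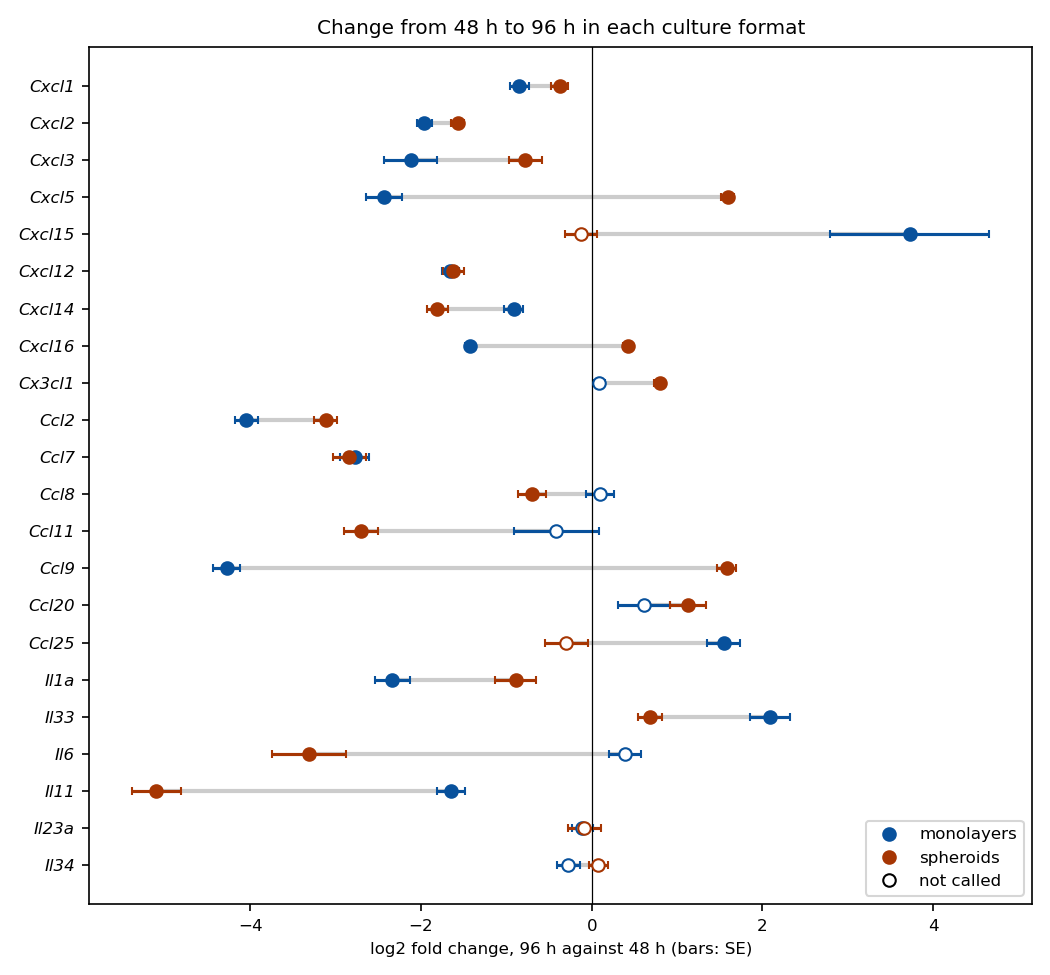
Change of the 22 well measured genes from 48 h to 96 h as log2 fold change (horizontal axis) in monolayers (blue) and spheroids (brown), with SE as bars; open points were not called and a grey line joins both values of a gene. For Cxcl5, Cxcl16 and Ccl9 the blue point lies below 0 and the brown point above 0, and for Il6 only the brown point lies far below 0 (-3.31).

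Whether the spheroid effect itself differed between the times was tested by the interaction, the effect at 96 h minus that at 48 h. It was called positive for 11 of the 34 members (32.4%, beside 26.9% of all genes) and negative for 10 (29.4%, beside 26.4%). By family, 10 of 21 chemokine rows were positive and 5 negative, and 1 of 13 interleukin rows was positive and 5 negative. The largest positive values among well measured genes were those of Ccl9 and Cxcl5 (4.02 ± 0.219), and the most negative those of Cxcl15 (-3.85 ± 0.950), Il6 (-3.70 ± 0.475) and Il11 (-3.45 ± 0.373). The value of Cxcl15 rests on the single count in 48 h monolayers. The interaction of Cxcl2 (0.39 ± 0.120) was not called without replicate 3 of the 96 h monolayers (0.28), nor were those of Cxcl1 and Cxcl2 when libraries were scaled by total count (0.28 and 0.20).

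The receptors of these ligands were sparse. Of 22 chemokine receptor genes, 5 had enough counts to test, of which 2 were higher in spheroids at 48 h and none lower (median log2 change 0.33), beside 31.6% higher and 26.4% lower among all genes. At 96 h, 1 was higher and 4 were lower (median -1.18), beside 37.3% and 36.5%. Cxcr2, the receptor of Cxcl1, Cxcl2, Cxcl3 and Cxcl5, had means of 1.75, 2.23, 2.74 and 1.42 CPM in 48 h monolayers, 48 h spheroids, 96 h monolayers and 96 h spheroids, and was lower in spheroids at 96 h (-0.92 ± 0.324). Cxcr4, the receptor of Cxcl12, had 3.67, 4.02, 20.8 and 2.84 CPM in the same order and was lower in spheroids at 96 h (-2.87 ± 0.189), while its ligand was lower at both times. Ackr3, which binds Cxcl12 and removes it, was lower at 96 h as well (-1.18 ± 0.220). Ccr1, a receptor of Ccl9, had 0.575, 5.30, 8.09 and 1.51 CPM: it was higher in spheroids at 48 h (3.21 ± 0.309), when Ccl9 was lower, and lower at 96 h (-2.41 ± 0.235), when Ccl9 was higher. Ccr1 and Cxcr4 were highest in the 96 h monolayers, as was the summed level of the 15 leukocyte markers given above. That peak came from Cd68, a gene of macrophage lysosomes, with 2.44, 4.86, 24.9 and 5.02 CPM: the other 14 markers summed to 24.2 to 36.7, 27.7 to 32.5, 21.8 to 26.6 and 26.7 to 30.8 CPM and were not highest there. Of the 5 leukocyte markers tested, 3 were lower in spheroids at 96 h (60%, beside 36.5% of all genes) and 1 was higher (20%, beside 37.3%). In monolayers, 2 of these markers rose from 48 h to 96 h (40%, beside 30.1%) and 1 fell (20%, beside 31.3%). The part of leukocytes in the changes of chemokines, interleukins and their receptors was not tested. Ackr4, a scavenger of Ccl25 among others, was higher in spheroids at both times (2.66 ± 0.597 and 2.65 ± 0.381). Too low to test were the receptors of Cxcl16 (Cxcr6, with 7, 0, 1 and 0 counts per group), of Cx3cl1 (Cx3cr1, with 2, 3, 8 and 4), of Ccl2 (Ccr2, with 2, 6, 6 and 6) and of Ccl20 (Ccr6, with 0, 0, 1 and 0).

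Interleukin receptors were far better represented, with 30 of 43 genes tested. At 48 h, spheroids were higher for 19 (63.3%, beside 31.6% of all genes) and lower for 6 (20%, beside 26.4%), with a median of 0.67. At 96 h they were higher for 11 (36.7%, beside 37.3% of all genes) and lower for 12 (40%, beside 36.5%), shares near those of all genes, with a median of -0.13. Il6ra, the binding subunit for Il6, was higher in spheroids at both times (2.05 ± 0.138 and 0.68 ± 0.130), where Il6 was lower, and Il6st was higher at 48 h (0.48 ± 0.102). Il11ra1 was higher at 48 h (0.51 ± 0.110), with 0.14 ± 0.113 at 96 h (adjusted p = 0.267). Il1rl1, the receptor of Il33, was higher in spheroids at both times (0.82 ± 0.0882 and 0.90 ± 0.108), as was Il33 itself, and so was the co-receptor Il1rap (0.45 ± 0.0651 and 0.38 ± 0.0638). Il1r1, the receptor of Il1a, was higher at 48 h (1.36 ± 0.104) and lower at 96 h (-0.48 ± 0.111). Among the most abundant of the list, Il4ra and Osmr were lower in spheroids at 96 h (-1.64 ± 0.0645 and -1.60 ± 0.0940) and not called at 48 h, and Il13ra1 was higher at 48 h (0.29 ± 0.0792) and lower at 96 h (-0.41 ± 0.0764). The receptor subunits for interleukin 23, Il23r and Il12rb1, were too low to test.

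Antagonists, processing enzymes and related cytokines outside the name rule were tested for 17 of 24 genes. At 48 h, spheroids were higher for 6 (35.3%, beside 31.6% of all genes) and lower for 9 (52.9%, beside 26.4%), with a median of -0.21. At 96 h they were higher for 7 (41.2%, beside 37.3% of all genes) and lower for 5 (29.4%, beside 36.5%), shares near those of all genes, with a median of -0.09. Il1rn, the antagonist of the receptor that Il1a binds, had 1.92 ± 0.477 CPM in 48 h monolayers and 22.7 ± 1.02 CPM in 48 h spheroids, and 1.46 ± 0.154 and 34.5 ± 1.53 CPM at 96 h, an effect opposite to that of Il1a at 48 h (3.54 ± 0.141 for Il1rn). Csf1, which shares the receptor Csf1r with Il34, stood at 1289 ± 58.5 and 379.9 ± 4.33 CPM in monolayers and spheroids at 48 h and 1403 ± 85.3 and 131 ± 1.36 CPM at 96 h. It was lower in spheroids (-1.76 ± 0.0656 at 48 h and -3.42 ± 0.0704 at 96 h) whereas Il34 was higher. Csf1r itself was called in neither comparison (0.41 ± 0.305 and -0.62 ± 0.318). Of the cytokines that share Il6st with Il6 and Il11, Clcf1 was higher in spheroids at both times (0.70 ± 0.0795 and 0.67 ± 0.0984), and Lif was lower at 48 h (-0.21 ± 0.0711) and higher at 96 h (1.08 ± 0.0736). Csf3, the neutrophil growth factor, was higher at 96 h (2.08 ± 0.105), with 0.01 ± 0.0892 at 48 h. Tnf, an inducer of many chemokines, was lower at 48 h (-1.80 ± 0.155), with 0.28 ± 0.176 at 96 h (adjusted p = 0.153).

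**Figure D4:**
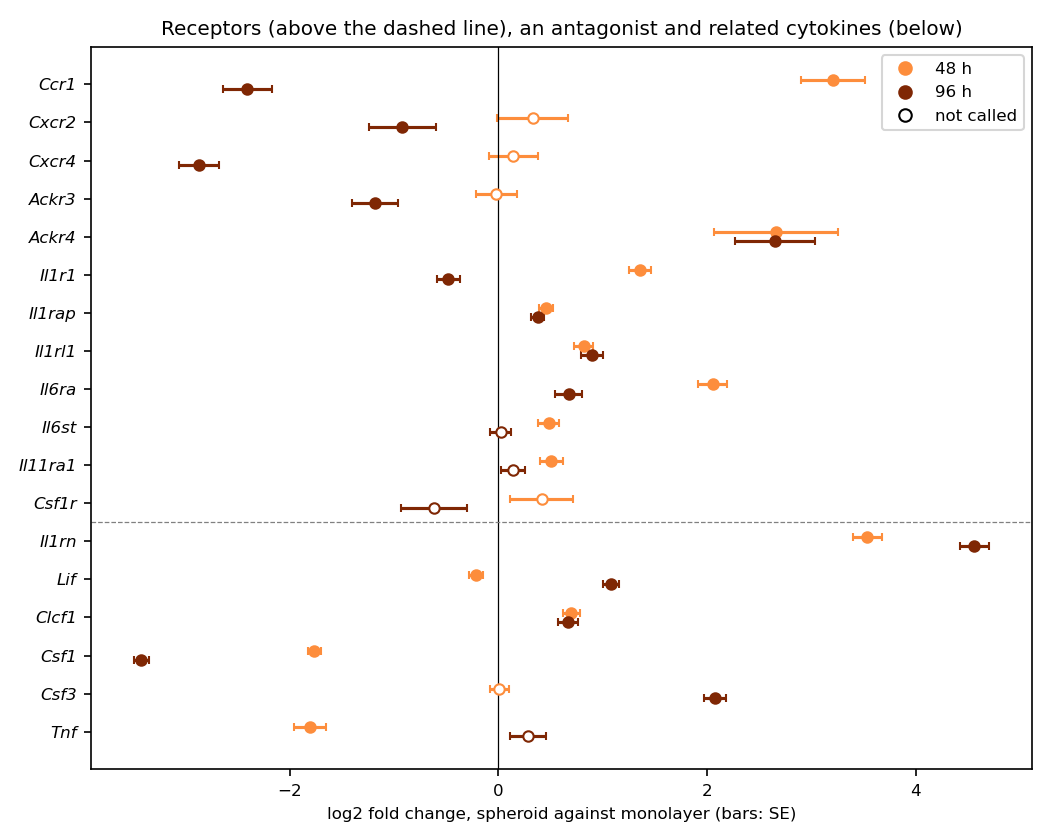
Spheroid effect at 48 h (orange) and 96 h (brown) as log2 fold change with SE, for receptors of the well measured ligands (above the dashed line) and for an antagonist and related cytokines (below it); open points were not called. Ccr1 lies above 0 at 48 h and below 0 at 96 h, and Il1rn (4.56 at 96 h) and Csf1 (-3.42 at 96 h) lie at opposite ends.

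The 31 genes of NF-kB and Stat3 signalling were all tested. In the 48 h comparison spheroids were higher for 10 (32.3%, beside 31.6% of all genes) and lower for 10 (32.3%, beside 26.4%), shares near those of all genes. At 96 h they were higher for 17 (54.8%, beside 37.3% of all genes) and lower for 7 (22.6%, beside 36.5%), and the medians were 0.04 and 0.20. In monolayers, 17 of them fell (54.8%, beside 31.3% of all genes) and 4 rose (12.9%, beside 30.1%) with time (median -0.27). Stat3 was higher in spheroids at both times (0.38 ± 0.0640 and 0.73 ± 0.0640). The NF-kB subunit gene Nfkb1 (0.87 ± 0.0698) and the inhibitor gene Nfkbia (0.61 ± 0.0730), itself a target of the pathway, were higher at 96 h and not called at 48 h. Rela was lower at 48 h (-0.29 ± 0.0623), Stat6 was higher at 96 h (0.30 ± 0.0658) and Jak1 lower at 96 h (-0.32 ± 0.0604). Called effects beyond 1 on the log2 scale in either direction, a size set after the values were seen, included those of Irak3, Tnfaip3, Socs1 and Socs3, which are known to restrain these pathways. At 48 h such effects were seen for Irak3 (1.72 ± 0.0876; its row carries a further symbol), Socs3 (1.47 ± 0.147), Socs1 (1.27 ± 0.255) and Tnfaip3 (-1.49 ± 0.0829). At 96 h they were seen for Bcl3 (1.55 ± 0.113), Irak3 (1.21 ± 0.0918), the adaptor gene Myd88 (1.15 ± 0.0873), the kinase subunit gene Ikbkg (-1.04 ± 0.0595) and Socs1 (-1.001 ± 0.275).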

How the data were processed

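Per the submitters' processing notes, the tools were RSEM 1.2.30, Bowtie 1.0.1 and bcl2fastq 2.15.0, and the build was mm9; program options and strandedness are not given in the sources read here, so antisense reads cannot be told apart. The authors deposited RSEM expected counts per gene, already whole numbers (338 values are a count of 0 beside an FPKM above 0), log2 values of FPKM plus 1, and an annotation of symbols. Genes passing filterByExpr (minimum count 10, total 15) were fitted with edgeR 4.0.16 in R 4.3.3: TMM scaling (factors 0.923 to 1.07), a quasi-likelihood model with group as the only term over 12 libraries, 5 contrasts, 2-sided tests, Benjamini-Hochberg adjustment, threshold 0.05. The standard error is the log2 change divided by the square root of F. Levels are CPM with TMM-adjusted library sizes. The script was tested on simulated data. Replicates differed by more than sampling noise (chi-square per degree of freedom 2.48 to 18.3). Ratios of pooled counts have exact (Clopper-Pearson) intervals.

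Every tested member was named, and those with a group mean of at least 5 CPM got a value per library. Of other lists, the rule was at most 6 genes with the highest mean plus direct receptors and antagonists. Genes named beyond this rule included Ppbp and, for NF-kB and Stat3 signalling, genes with called effects beyond 1 on the log2 scale. The members and lists were chosen with earlier results of these data known. The name pattern also matched 4 receptor rows (Il7r, Il9r, Il21r and Il23r), which were left out. Il36a is in the file as Il1e. The motifs were also chosen with results known, and the NF-kB letters are a shortened form of a longer, rarer run searched first. RefSeq promoters are of GRCm38.p6, so no other coordinates are given. Alternatives numbered 21 and included DESeq2 1.42.0 and limma 3.58.1 on log2 FPKM.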

Additional observations from a re-analysis of the deposited data

Results flagged for a closer look

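The spheroid effect at 96 h differed from that at 48 h, by the test of the interaction, for 21 of the 34 tested members. The difference was positive for 11 (32.4%, beside 26.9% of all genes) and negative for 10 (29.4%, beside 26.4%). Values are the log2 effect at 96 h minus that at 48 h. Among the genes with effects of opposite sign, it was 5.86 for Ccl9 and 1.85 for Cxcl16. Among the ELR chemokines it was 4.02 for Cxcl5, 1.35 for Cxcl3, 0.47 for Cxcl1, 0.39 for Cxcl2 and -3.85 for Cxcl15, the last on 1 count in 48 h monolayers. Other chemokines with a larger value at 96 h than at 48 h were Ccl6 (2.21), Cxcl10 (2.08), Ccl2 (0.93) and Cx3cl1 (0.71), and those with a smaller value were Ccl11 (-2.28), Ccl25 (-1.84), Cxcl14 (-0.90) and Ccl8 (-0.80). Of the interleukins, the difference was 1.45 for Il1a, -3.70 for Il6, -3.56 for Il16, -3.45 for Il11, -2.36 for Il18 and -1.41 for Il33. The value for Il18 was not called when any of 4 libraries was left out (replicates 1 and 2 of the 48 h spheroids, replicate 3 of the 96 h monolayers and replicate 2 of the 96 h spheroids; -2.22, -1.89, -2.15 and -2.24).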

How the results depend on the processing

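Under 21 alternatives (other scalings, filters, DESeq2, limma on the deposited log2 FPKM, a replicate block, only the groups compared, each library left out), 414 of 416 counts of called genes stayed within 1.5 times. The exceptions were the members that rose in monolayers, 7 by the main analysis, 11 with total-count scaling and 4 with a minimum count of 30. Of 2814 values of single members, 2720 kept their direction and side of the threshold. Those that changed sign were not called in any of these fits. The spheroid effect on Ccl2 at 96 h was -0.0460 with upper-quartile scaling, -0.0314 with total-count scaling, -0.0378 with limma and -0.13 to 0.18 with single libraries left out. The interaction of Il23a was -0.0548, -0.17 and -0.16 in the same order, -0.0218 with a minimum count of 30 and -0.17 to 0.23 with libraries left out; its change in monolayers was 0.0641 with total-count scaling and 0.0670 with limma, and in spheroids -0.28 to 0.12 with libraries left out. The interaction of Cxcl12 was -0.0457 with upper-quartile scaling, -0.16 with total-count scaling, -0.0124 with a minimum count of 30 and -0.12 to 0.14 with libraries left out. Leaving out libraries also gave -0.77 to 0.0742 for Ccl11 and -0.0497 to 0.21 for Ccl8 in monolayers over time, -0.22 to 0.0601 for Cxcl15 in spheroids over time and -0.29 to 0.0642 for the interaction of Ccl7. The cause was not tested.

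Cxcl15 had a single count in 48 h monolayers: without replicate 2 of that group the spheroid effect at 48 h was 9.84, against 7.99 with it. Without replicate 3 of the 96 h monolayers the effect at 96 h was 4.77, against 4.15 with it. On the log2 FPKM scale, on which low values shrink, the interactions of Cxcl1 (0.29), Cxcl2 (0.16), Cxcl3 (0.49) and Cxcl15 (-0.40) were not called. Called effects could be over 1.5 times smaller on that scale: at 96 h they were 2.65 for Ccl9, -2.98 for Il6 and -1.54 for Il11, still called. The share of called genes that were higher was 54.5% at 48 h, 49.0% in monolayers over time and 50.5% for the interaction; it was 65.1%, 66.2% and 34.2% with total-count scaling, with shifts of the all-gene median of 0.11, 0.17 and -0.19, and 65.2%, 65.2% and 35.6% with limma. Same-numbered libraries did not clearly deviate together (correlations of -0.0576 to 0.0791). Such correlations cannot exclude a shared source, so whether the numbers pair the libraries is not known. With the replicate block, members called higher over time were 6 in monolayers and 7 in spheroids, against 7 and 8 without it; the calls of Il15 and Il7 there ended, and the other counts of members were 13, 12, 14, 11, 15, 14, 11 and 10, as without the block. Depth limits the size of effects that rest on fewer than 10 counts in a group, such as those of Il6, Il11 and Cxcl17.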
